A study of Mus musculus with 32 samples.

Results

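The nuclear genes of the mitochondrial respiratory chain and ATP synthase were followed in the small intestine of mice lacking Fabp2, Fabp6 or both. Members were all probe sets that the platform annotation assigns to 1 gene whose symbol starts with Nduf, Uqcr, Atp5 or Cox4 to Cox8, or is Sdha, Sdhb, Sdhc, Sdhd, Cyc1, Cycs, Sco1, Sco2 or Surf1. This gave 187 probe sets for 95 genes, out of 35067 probe sets annotated to 1 gene, with 162 on the Affymetrix array 430A and 25 on 430B. Total RNA came from the whole small intestine of 10-week-old mice on a C57BL/6J background, from the base of the stomach to just before the cecum, flushed with cold saline. The 4 genotypes were Fabp2-/-, Fabp6-/-, Fabp2-/-;Fabp6-/- and wild type (WT), each with females and males, which made 8 groups of 2 pools, and each pool combined the RNA of 2 mice. The mice were fasted littermates on the same standard chow, none was treated, and the double line came from interbreeding the single lines, whose upkeep on that background included 1 cross to a C57BL/6J male. The disruptions are in the germline and the tissue was taken whole, so a difference between groups cannot be assigned to 1 cell type.

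The respiratory chain sits in the inner mitochondrial membrane. Complex I (most of the Nduf subunits) takes electrons from NADH, and complex II (Sdha to Sdhd) takes them from succinate in the citric acid cycle. Both pass them through ubiquinone to complex III (the Uqcr subunits and cytochrome c1, Cyc1), which hands them to cytochrome c (Cycs) and on to complex IV, cytochrome c oxidase, where oxygen is reduced. Protons pumped on the way drive complex V, ATP synthase. Enterocytes are rich in mitochondria and draw on this ATP for nutrient transport and for the resynthesis of dietary lipid. FABP2 and FABP6 are cytosolic carriers of enterocytes, FABP2 for fatty acids and FABP6 mainly for bile acids.

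The arrays had medians of 6.57 to 6.62 (430A) and 5.89 to 5.92 (430B) on the log2 scale of robust multichip average (RMA) signals. Fabp2 lay at 8.98 to 9.98 in the 8 pools of Fabp2-disrupted mice and at 12.58 to 13.05 in the other 8. Fabp6 lay at 4.80 to 5.04 in 7 pools of Fabp6-disrupted mice, but at 9.21 in the pool labelled Fabp6-/- female replicate 2, against 10.50 to 11.32 where the gene was intact. That pool goes against its label in part, so several results of Fabp6-/- mice are also given without it. The other Fabp6-/- values include it. Over 100 probe sets present on both arrays, 14 of 16 pools resembled their own second array most, and WT female replicate 2 and Fabp2-/- female replicate 1 did not. Villin (Vil1), a protein of the brush border made across the intestinal epithelium, was among the high signals in every pool, at 11.47 to 11.82. The ileal bile acid transporter Slc10a2 was low throughout, at 4.16 to 5.39.

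Members were among the strong signals of the tissue. Their mean log2 signals ran over 3.19 to 12.5 with a median of 9.78, against a median of 6.37 over all probe sets, and 134 of 187 averaged at least 8. Probes differ in how strongly they bind, so signals are not compared between genes here. The median range of a member over the 16 pools was 0.371 log2 units, against 0.382 over all probe sets and 0.419 over those averaging at least 8. Atp5b, the catalytic beta subunit of ATP synthase, stayed within 11.86 to 12.20, and Sdhb, the iron-sulfur subunit of complex II, within 11.07 to 11.34. The members also moved together from pool to pool. Among the 134 stronger probe sets the median correlation of a pair was 0.322 over the 16 pools and 0.259 after the group means were removed, while over all 5396 probe sets of that strength it was 0.0444 and 0.0757. These are descriptions, since the probe sets share the same 16 pools and arrays.

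The 17 comparisons were each gene disruption against WT in each sex and as the mean of both sexes, females against males in each genotype and as the mean of the 4 genotypes, and the 3 interactions of sex and genotype. A probe set was called at a false discovery rate (FDR) under 0.2 with an absolute log2 difference over 0.5, in a limma fit of all probe sets with Benjamini-Hochberg adjustment. The comparisons with WT share the WT pools, so each is described on its own. In bulk RNA, fewer cells of a type and less RNA per cell cannot be told apart. The small number of arrays, 2 a group, sets the precision.

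Sco2 was the only member called in any of the 17 comparisons. Its product is a copper chaperone that helps build the copper centre of subunit 2 of cytochrome c oxidase. In females, Sco2 had log2 signals of 8.26 and 8.32 in Fabp2-/- pools, 8.22 and 8.28 in Fabp6-/- pools and 8.48 and 8.47 in Fabp2-/-;Fabp6-/- pools, against 9.24 and 9.06 in WT pools. All 6 pools of gene-disrupted females lay below both WT female pools. Sco2 fell by 0.86 (SE 0.12, limma FDR = 0.00221) in Fabp2-/- females, where 0.508% of all probe sets were called. It fell by 0.90 (SE 0.12, limma FDR = 0.00396) in Fabp6-/- females, with 0.282% of all probe sets called, and by 0.94 (limma FDR = 0.0047) without the pool labelled Fabp6-/- female replicate 2. In females lacking both genes, with 0.576% called, it fell by 0.67 (SE 0.12, limma FDR = 0.0132). These 3 comparisons rest on the same 2 WT female pools.

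Males showed no such gap. Sco2 had 8.06 and 8.22 in Fabp2-/- male pools, 8.12 and 8.24 in Fabp6-/- male pools and 8.67 and 8.30 in Fabp2-/-;Fabp6-/- male pools, against 8.48 and 8.20 in WT male pools, and the ranges overlapped in each case. No member was called in males by limma. At an unadjusted p under 0.05 stood 22 of 187 members for Fabp2-/-, 30 for Fabp6-/- and 14 for Fabp2-/-;Fabp6-/-, beside 7.84%, 9.33% and 12.4% of all probe sets. The shares of all probe sets called were 0.465%, 0.291% and 1.04%. Within WT mice, Sco2 stood 0.81 higher in females than in males (SE 0.12, limma FDR = 0.00568), with 9.24 and 9.06 in female pools against 8.48 and 8.20 in male pools. In WT mice 0.174% of all probe sets were called between females and males. The same difference was 0.15 in Fabp2-/- mice, 0.07 in Fabp6-/- mice and -0.01 with both genes disrupted, none past the limit. The calls held without WT female replicate 2, at -0.95, -0.99 and -0.76 for the 3 lines and 0.90 between WT females and males, and the Fabp2-/- call without Fabp2-/- female replicate 1, at -0.83.

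The test of whether the difference from WT itself differed between females and males did not pass for any member. For Sco2 the interaction was -0.67 in Fabp2-/- mice (SE 0.17, limma FDR = 0.936), -0.74 in Fabp6-/- mice (limma FDR = 0.722) and -0.82 in Fabp2-/-;Fabp6-/- mice (limma FDR = 0.325). Of the 187 members, 6, 7 and 12 had an unadjusted p under 0.05 in these tests, beside 5.28%, 4.57% and 6.67% of all probe sets, of which 0.0114%, 0.00285% and 0.00285% were called. Hence a loss of Sco2 signal that is particular to females was not shown after adjustment over all probe sets.

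As the mean of both sexes, Sco2 fell by 0.53 in Fabp2-/- mice (SE 0.084, limma FDR = 0.00277; 0.442% of all probe sets called) and by 0.53 in Fabp6-/- mice (SE 0.084, limma FDR = 0.00667; 0.222% called). Both values are close to the fold limit, and the call in each ends without WT male replicate 1 (-0.46 in each) or without WT female replicate 1 (-0.49 in each), with the FDR at 0.0412 or less. Without the pool labelled Fabp6-/- female replicate 2 the Fabp6-/- mean was -0.55 (limma FDR = 0.00496). The Fabp2-/- call also ends without Fabp2-/- male replicate 1 (-0.49, limma FDR = 0.0163). In Fabp2-/-;Fabp6-/- mice the mean difference was -0.26 (SE 0.084, limma FDR = 0.116), under the fold limit.

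The signal cannot be given to Sco2 alone. Its probe set, 1432181_s_at, carries the suffix of sets that can detect more than 1 transcript. In RefSeq (GRCm38.p6) 2261 of the 2262 bases that Sco2 spans also lie within Tymp, the thymidine phosphorylase gene, and 1221 lie within Ncaph2. Tymp had no probe set of its own among those fitted, so the 2 genes cannot be told apart. None of the probe sets of Ncaph2 was called in these comparisons, and 1 of its 4 probe sets passed the FDR limit alone, in the mean of Fabp2-/-;Fabp6-/- mice (-0.20, limma FDR = 0.0667). The neighbouring Odf3b, which was not called either, passed it on a probe set (of 3) in Fabp2-/- females (-0.34, limma FDR = 0.0532), in the Fabp2-/- mean (-0.26, limma FDR = 0.0226) and between females and males over the 4 genotypes (0.19, limma FDR = 0.078), but not in Fabp6-/- females (-0.05) or Fabp2-/-;Fabp6-/- females (0.11). Another of the 3 passed in Fabp2-/- females (-0.28, limma FDR = 0.112) and in the Fabp2-/- mean (-0.19, limma FDR = 0.111), and the third in the Fabp2-/-;Fabp6-/- mean, where it was higher (0.18, limma FDR = 0.187). The other assembly factors of complex IV among the members were not called. Sco1, the paralogue of Sco2, lay within 6.38 to 6.78 over the 16 pools. Surf1, which acts early in the assembly of the oxidase, lay within 7.92 to 8.18. In females Surf1 had 8.04 and 7.98 in Fabp2-/- pools, 8.06 and 7.97 in Fabp6-/- pools and 7.98 and 8.01 in Fabp2-/-;Fabp6-/- pools, against 8.13 and 8.18 in WT pools, and none of these 3 differences passed the FDR limit (0.524 to 0.791). Surf1 thus had its WT female pools highest among females, as Sco2 did, at a size that did not pass. Pancreatic acinar markers (10 of 12 genes measured) were higher in the WT female than in the WT male pools, with summed linear signals of 92420 to 98660 in WT females, against 42010 to 66890 in WT males. In females they summed to 75230 to 116800 in Fabp2-/-, 61370 to 85700 in Fabp6-/- and 57770 to 67870 in Fabp2-/-;Fabp6-/- pools. The part of this tissue in the Sco2 signal was not tested.

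**Figure D1:**
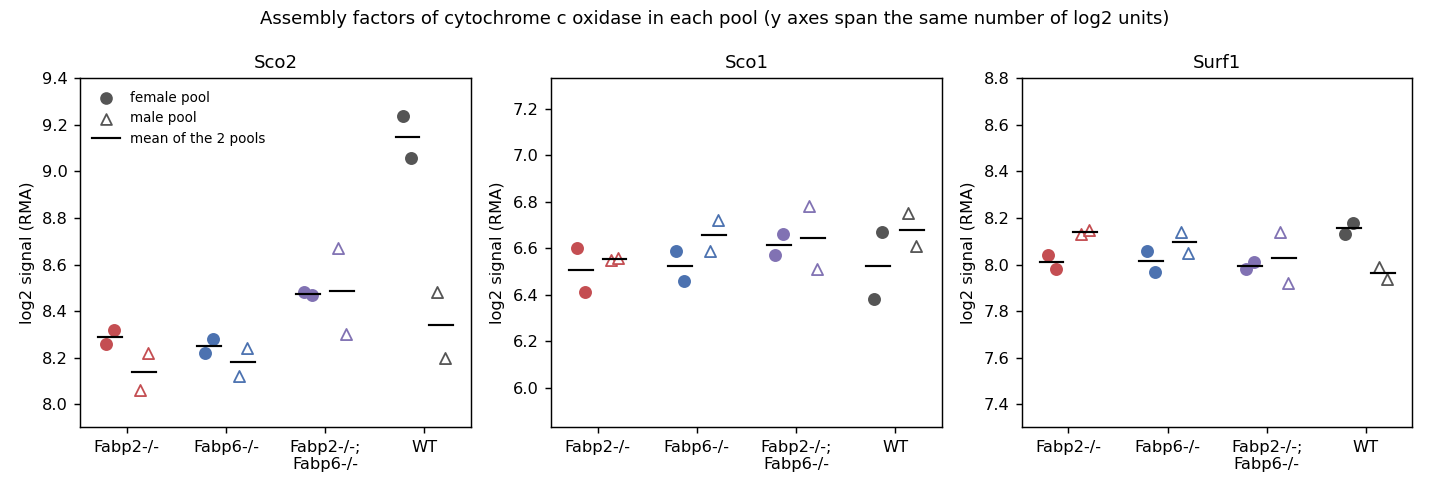
Log2 RMA signal (y axis) of Sco2, Sco1 and Surf1 in each of the 16 pools by genotype (x axis), with filled circles for female pools, open triangles for male pools and bars for the mean of 2 pools. The 2 WT female pools of Sco2, at 9.24 and 9.06, stand above the other 14, while Sco1 stays within 6.38 to 6.78 and Surf1 within 7.92 to 8.18.

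Apart from Sco2, the members differed from WT by small amounts. As the mean of both sexes, the median log2 difference of the 187 members was -0.062 in Fabp2-/- mice and -0.0638 in Fabp6-/- mice, against -7.41e-05 and -0.00971 over all probe sets. The Fabp2-/-;Fabp6-/- value was -0.00719, against 0.00205. Without the pool labelled Fabp6-/- female replicate 2 the Fabp6-/- median was -0.0808, against -0.0166. In Fabp2-/- mice 81.8% of the members had a negative difference (50.0% of all probe sets), in Fabp6-/- mice 78.1% (54.5%) and in Fabp2-/-;Fabp6-/- mice 52.9% (49.1%). For scale, the median member signal of 1 pool had a pooled SD of 0.0345 between the 2 pools of a group. By unadjusted p under 0.05 there were 28 members in Fabp2-/- and 41 in Fabp6-/- mice, beside 12.4% and 13.2% of all probe sets. By pools, 18 members had all 4 Fabp2-/- pools below all 4 WT pools and 0 above (3.97% and 2.49% of all probe sets). In Fabp6-/- mice 23 were below and 2 above (3.93% and 3.13%), and in Fabp2-/-;Fabp6-/- mice 6 were below and 4 above (5.5% and 4.64%).

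Pool by pool, the median member signal relative to the mean of the 16 pools was -0.041 and -0.043 in Fabp2-/- females and 0.010 and -0.025 in Fabp2-/- males. It was -0.072 in Fabp6-/- female replicate 1, -0.028 in the pool labelled Fabp6-/- female replicate 2, and 0.002 and -0.046 in Fabp6-/- males. In Fabp2-/-;Fabp6-/- mice it was -0.012 and 0.050 in females and 0.027 and 0.067 in males, against 0.045 and -0.029 in WT females and 0.088 and 0.038 in WT males. The WT male pools were among the high ones and most pools of the single lines were low, but the groups overlap, since WT female replicate 2 lay among the pools of the single lines. Over all probe sets the same value stayed within -0.018 to 0.014. Most members are strong signals, and over the 5396 probe sets that average at least 8, as 134 members do, it ran over -0.066 to 0.025. The lowest of these were -0.066 in Fabp2-/- female replicate 2, below the members in that pool, and -0.039 in the pool labelled Fabp6-/- female replicate 2.

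**Figure D2:**
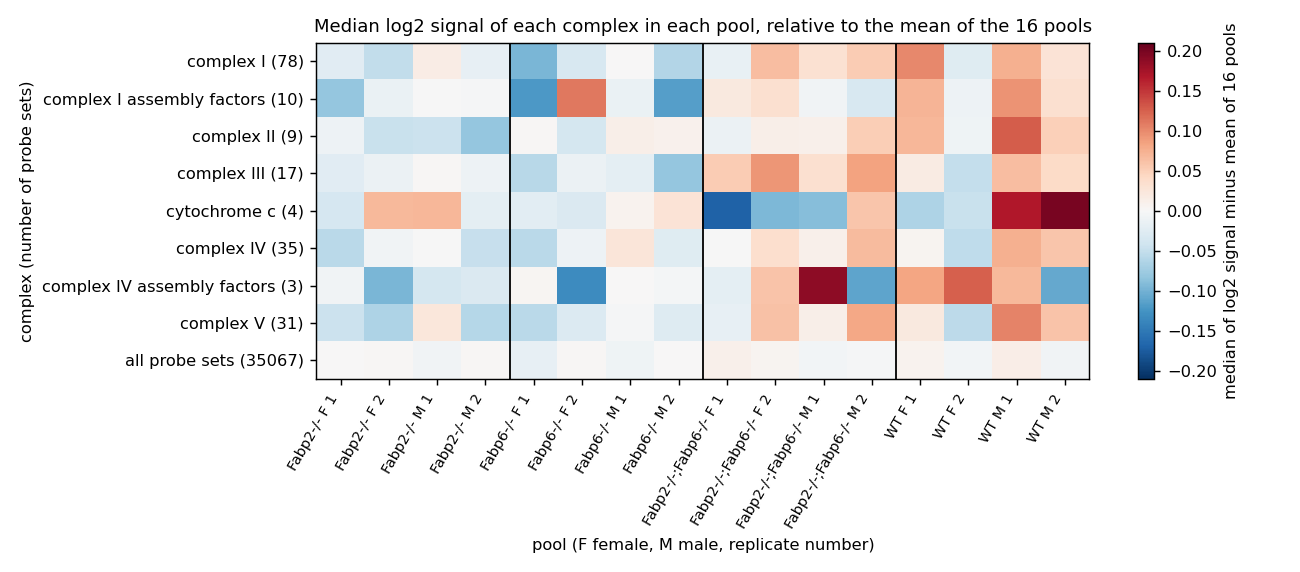
Median log2 signal of each complex (rows, with the number of probe sets) in each of the 16 pools (columns), relative to the mean of the 16 pools, on a colour scale in log2 units. Most pools of the single lines tend to blue, but not Fabp2-/- male replicate 1 or Fabp6-/- male replicate 1 (0.010 and 0.002 over all 187 members). WT male replicates 1 and 2 tend to red (0.088 and 0.038). So do Fabp2-/-;Fabp6-/- female replicate 2 and male replicate 2 (0.050 and 0.067). The row of all 35067 probe sets is close to 0.

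Without the fold limit, 11 members passed the FDR limit in Fabp2-/- mice, all of them lower (5.88% of members; 4.06% of all probe sets were lower by this rule and 1.81% higher). In Fabp6-/- mice 18 were lower (9.63%, against 3.07% of all probe sets) and 4 higher (2.14%, against 2.89%). With both genes disrupted 5 were lower and 5 higher (2.67% each, against 5.82% and 4.53%). These counts depend on single pools, and so do the shares of all probe sets. Leaving out each pool in turn gave 3 to 14 lower members in Fabp2-/- mice, while 2.21% to 3.77% of all probe sets were lower. The lowest counts came on dropping WT male replicate 1 (3 of 187 members, against 2.21% of all probe sets, so the members were not above the background there), WT female replicate 1 (4, against 3.36%), Fabp2-/- male replicate 2 (6, against 3.09%) or Fabp2-/- female replicate 1 (6, against 3.21%). For Fabp6-/- mice the count ran over 3 to 29, while 0.938% to 4.05% of all probe sets were lower. Dropping WT male replicate 1 or Fabp6-/- male replicate 2 gave 3 each (against 0.998% and 0.938%), and dropping WT female replicate 1 gave 4 (against 1.71%). It was 9 after dropping Fabp6-/- female replicate 1 (against 3.16%), 10 after Fabp6-/- male replicate 1 (against 1.37%) and 29 after WT female replicate 2 (against 2.93%). Dropping the pool labelled Fabp6-/- female replicate 2 gave 26 lower members, with 4.05% of all probe sets lower. With both genes disrupted, 1 to 6 were lower and 0 to 4 higher, with 1 of each on dropping WT male replicate 1 (against 3.29% lower and 2.55% higher), and 0 higher on dropping either Fabp2-/-;Fabp6-/- male pool (against 2.53% and 2.92%). It was 1 lower without Fabp2-/-;Fabp6-/- female replicate 1 (against 4.09%) and 1 higher without replicate 2 of that group (against 2.23%).

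Beside these differences, the crypt and proliferation markers (8 of 9 genes measured) had summed linear signals of 3454 to 4247 in Fabp2-/-, 3650 to 4231 in Fabp6-/- and 3789 to 4280 in Fabp2-/-;Fabp6-/- pools, against 4297 to 4642 in WT pools. T cell markers (8 of 8) summed to 1852 to 2308 in Fabp2-/-, 2221 to 3338 in Fabp6-/- and 1723 to 2051 in Fabp2-/-;Fabp6-/- pools, against 2490 to 2954 in WT pools. Enterocyte markers (12 of 13) summed to 92010 to 99370 in Fabp2-/-, 92410 to 103000 in Fabp6-/- and 98090 to 104100 in Fabp2-/-;Fabp6-/- pools, against 94820 to 99030 in WT pools. Adipocyte markers (7 of 9) summed to 1204 to 2186 in Fabp2-/-, 893.4 to 1274 in Fabp6-/- and 1182 to 1580 in Fabp2-/-;Fabp6-/- pools, against 1105 to 1155 in WT pools, so that every Fabp2-/- and Fabp2-/-;Fabp6-/- pool lay above WT. B and plasma cell markers (7 of 8) summed to 7063 in Fabp2-/- male replicate 1, against 3505 to 4920 in the other 15 pools. Hepatocyte markers (5 of 6) summed to 674 to 787.2 in Fabp2-/-, 673.4 to 1127 in Fabp6-/- and 897.7 to 1345 in Fabp2-/-;Fabp6-/- pools, against 701.3 to 872.7 in WT pools. For goblet, Paneth and enteroendocrine markers (12 of 12) the sums were 43880 to 46540, 43190 to 46660 and 46630 to 49070, against 41890 to 44830. On both lists every Fabp2-/-;Fabp6-/- pool lay above WT. The part of the makeup of the tissue in the shifts of the respiratory genes was not tested.

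**Figure D3:**
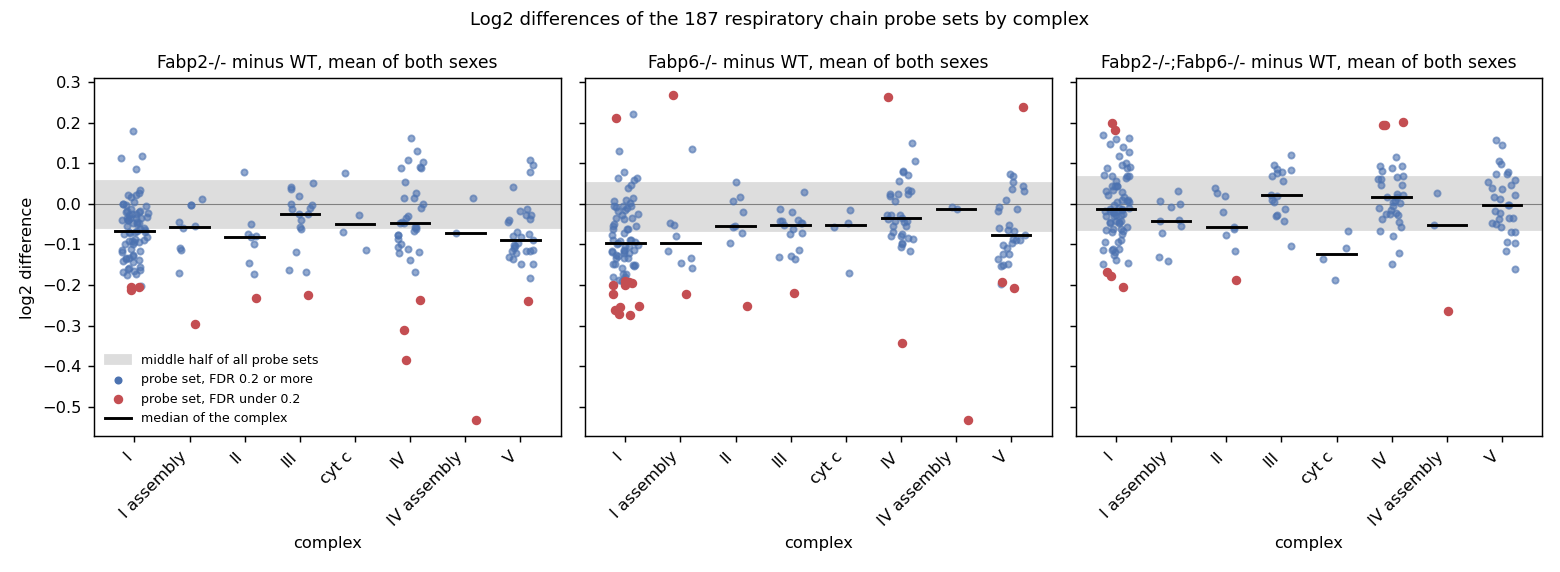
Log2 difference from WT as the mean of both sexes (y axis) of each of the 187 member probe sets by complex (x axis), with black bars for medians, red points for an FDR under 0.2 and a grey band for the interquartile range of all probe sets. Complex I and complex V lie mostly below 0 in Fabp2-/- (medians -0.066 and -0.0887) and Fabp6-/- mice (-0.0967 and -0.0779), and close to 0 in Fabp2-/-;Fabp6-/- mice (-0.0136 and -0.00327).

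Complex I, the largest group with 78 of the 187 probe sets, held most of the members that passed the FDR limit in Fabp6-/- mice. This group was formed by symbol from every Nduf gene not named Ndufaf, so Ndufa4 and Ndufa4l2 are counted in it. Of its probe sets 11 were lower (14.1%, against 3.07% of all probe sets) and 1 higher (1.28%, against 2.89%). As over all members above, these counts depend on single pools, and so do the shares of all probe sets. Far fewer were lower without WT male replicate 1, and more without the pool labelled Fabp6-/- female replicate 2. Ndufc1, a small accessory subunit of the membrane arm, was lower on both of its probe sets. On 1416285_at it had 10.31 and 10.57 in Fabp6-/- female pools and 10.60 and 10.47 in Fabp6-/- male pools, against 10.71 and 10.73 in WT females and 10.89 and 10.71 in WT males. All 4 Fabp6-/- pools lay below all 4 WT pools. The mean difference was -0.27 (SE 0.069, limma FDR = 0.0641), and on 1448284_a_at it was -0.26 (SE 0.064, limma FDR = 0.0545). Without the pool labelled Fabp6-/- female replicate 2 they were -0.34 and -0.30. The 250 bases before the RefSeq start of Ndufc1 (GRCm38.p6, chr3:51408956-51409205, minus strand), shown because both probe sets of this gene moved together, hold none of the 4 motifs searched below.
Ndufc1: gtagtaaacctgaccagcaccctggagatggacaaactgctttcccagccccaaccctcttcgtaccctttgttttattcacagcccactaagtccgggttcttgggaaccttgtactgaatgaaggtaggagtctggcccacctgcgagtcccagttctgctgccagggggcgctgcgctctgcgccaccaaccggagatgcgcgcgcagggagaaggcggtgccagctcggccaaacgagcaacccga

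Other subunits of complex I lower in Fabp6-/- mice were Ndufb2 (-0.27 on 1448483_a_at, limma FDR = 0.148), Ndufa10 (-0.25 on 1448934_at, limma FDR = 0.0825), Ndufs5 (-0.25, limma FDR = 0.137) and Ndufc2 (-0.22 on 1460506_s_at, limma FDR = 0.108). For Ndufa1, Ndufa3, Ndufa7, Ndufb10 and Ndufs8, accessory and iron-sulfur subunits, 1 probe set each was lower by about 0.19 to 0.20 with an FDR of 0.127 to 0.198. It was the gene's 1 probe set for Ndufa1 and Ndufb10, but 1 of 3 for Ndufa3, 1 of 5 for Ndufa7 and 1 of 6 for Ndufs8, whose smallest differences were -0.05, -0.10 and -0.04. Other probe sets of Ndufb2, Ndufa10 and Ndufc2 did not pass, at -0.13 and 0.01 for Ndufb2, -0.04 for Ndufa10, and -0.01, -0.01 and 0.04 for Ndufc2. Ndufc2 also passed the FDR limit in Fabp2-/- mice on 1 of 4 probe sets, with differences from -0.206 to 0.004 over the 4. Ndufab1, the mitochondrial acyl carrier protein that is also a subunit of complex I, had 5 probe sets that did not run together. Probe set 1453565_at was 0.21 higher in Fabp6-/- mice (limma FDR = 0.176), whereas 1458678_at was 0.21 lower in Fabp2-/- mice (limma FDR = 0.0447) and 0.20 lower in Fabp2-/-;Fabp6-/- mice (limma FDR = 0.0445). Both of these probe sets average under 6, where signal is close to background.

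In the catalytic core of complex I, 1 probe set of Ndufv1 passed the FDR limit in Fabp2-/- mice. Ndufv1, the flavoprotein that binds NADH, had 9.62 and 9.65 in Fabp2-/- females and 9.76 and 9.63 in Fabp2-/- males, against 9.97 and 9.81 in WT females and 9.87 and 9.83 in WT males on 1415966_a_at. Its 4 Fabp2-/- pools lay below its 4 WT pools on each of 3 probe sets. The differences were -0.20 (SE 0.060, limma FDR = 0.144), -0.20 (limma FDR = 0.219) and -0.16 (limma FDR = 0.266), so only the first passed the FDR limit. In the Fabp6-/- comparison the same probe sets differed by -0.05, -0.15 and 0.00, and the difference between the lines was not tested. Ndufs1, the largest iron-sulfur subunit, differed by -0.16 in Fabp2-/- mice (limma FDR = 0.379), also without overlap of the pools, and by 0.00 in Fabp6-/- mice (limma FDR = 0.987).

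Among the assembly factors of complex I named Ndufaf, Ndufaf6 had 5.80 and 5.94 in Fabp2-/- females and 5.96 and 5.86 in Fabp2-/- males, against 6.20 and 6.05 in WT females and 6.25 and 6.25 in WT males. The Fabp2-/- pools lay below the WT pools, with a difference of -0.30 (SE 0.071, limma FDR = 0.0322). These Fabp2-/- signals lie under 6, close to background. In Fabp6-/- mice Ndufaf8 was lower on 1457826_a_at (-0.22, limma FDR = 0.0522) and Ndufaf4 higher on 1435333_at (0.27, limma FDR = 0.177), a probe set with a WT mean of 5.13. Each of these 2 genes has 2 probe sets, and the other did not pass, at -0.12 for Ndufaf8 and 0.13 for Ndufaf4. Of 11 probe sets for 9 further assembly factors of complex I, among them Ecsit and Acad9, none passed the FDR limit in Fabp2-/- or Fabp6-/- mice. In Fabp2-/-;Fabp6-/- mice 1 was higher, where 4.53% of all probe sets were.

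In complex II the membrane anchors Sdhd and Sdhc passed the FDR limit. Sdhd, on 1428235_at, had 10.97 and 11.07 in Fabp2-/- females and 11.04 and 11.01 in Fabp2-/- males, against 11.24 and 11.12 in WT females and 11.34 and 11.30 in WT males. This was a difference of -0.23 without overlap (SE 0.062, limma FDR = 0.0946). Sdhd was 0.19 lower in Fabp2-/-;Fabp6-/- mice (limma FDR = 0.127), with overlapping pools, and its second probe set did not pass in any mean comparison with WT. Pools of Fabp6-/- mice had 11.27 and 11.22 in females and 11.27 and 11.32 in males, within the WT range. Sdhc had a difference of -0.25 in Fabp6-/- mice on 1448630_a_at (SE 0.071, limma FDR = 0.0958), and all 4 Fabp6-/- pools, at 9.21 to 9.34, lay below the WT pools, at 9.47 to 9.60. Without the pool labelled Fabp6-/- female replicate 2 it was -0.22 (limma FDR = 0.161). Sdha, the flavoprotein that oxidizes succinate, reached -0.17 in Fabp2-/- mice on 1 of 4 probe sets (limma FDR = 0.202), and Sdhb differed by -0.10 in Fabp2-/- and -0.06 in Fabp6-/- mice (limma FDR = 0.748 and 0.819).

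Complex III had 1 gene past the FDR limit in the genotype means. Its 17 probe sets had a median of -0.0245 in Fabp2-/- mice, -0.0517 in Fabp6-/- mice and 0.0229 with both genes disrupted. Uqcrh, the hinge protein beside cytochrome c1, passed on 1453229_s_at, at -0.22 in Fabp2-/- mice (limma FDR = 0.0764) and -0.22 in Fabp6-/- mice (limma FDR = 0.115), or -0.21 (limma FDR = 0.153) without the pool labelled Fabp6-/- female replicate 2. Its second probe set, 1452133_at, differed by 0.00 in Fabp2-/- mice and did not pass. Cyc1 and Uqcrfs1, which carry the heme and the iron-sulfur centre through which electrons leave the complex, had differences of -0.12 and -0.06 in Fabp2-/- mice and of -0.05 and -0.01 in Fabp6-/- mice, none past the limit.

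The structural subunits of complex IV exist in ubiquitous and tissue forms, and the largest mean difference after Sco2 in both single lines was in a muscle form. Cox7a1 is the form of subunit 7a found in heart and skeletal muscle, and it is also made in other tissues. It had 8.29 and 8.18 in Fabp2-/- females and 8.33 and 7.85 in Fabp2-/- males. It had 7.97 in Fabp6-/- female replicate 1, 8.30 in the pool labelled Fabp6-/- female replicate 2, and 8.30 and 8.25 in Fabp6-/- males. Fabp2-/-;Fabp6-/- mice had 8.45 and 8.67 in females and 8.76 and 8.58 in males, against 8.67 and 8.42 in WT females and 8.59 and 8.51 in WT males. All 8 pools of the single lines lay below all 4 WT pools, and the Fabp2-/-;Fabp6-/- pools overlapped them. The differences were -0.39 in Fabp2-/- mice (SE 0.10, limma FDR = 0.0905), -0.34 in Fabp6-/- mice (SE 0.10, limma FDR = 0.113) and 0.07 in Fabp2-/-;Fabp6-/- mice (limma FDR = 0.822). They stayed under the fold limit, and the gene was called in 3 comparisons when 1 pool was left out. These were Fabp2-/- males and the mean of both sexes without Fabp2-/- male replicate 1 (-0.71, limma FDR = 0.116, and -0.51, limma FDR = 0.015), and Fabp6-/- females without the pool labelled Fabp6-/- female replicate 2 (-0.58, limma FDR = 0.113). The Fabp6-/- mean without that pool was -0.43 (limma FDR = 0.0364).

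Smooth muscle surrounds the small intestine. Its markers (9 of 9 genes, 16 probe sets) summed to 3907 to 4582 in Fabp2-/-, 3893 to 4637 in Fabp6-/- and 4228 to 4817 in Fabp2-/-;Fabp6-/- pools, against 4476 to 5689 in WT pools. Of the 16 probe sets 3, 5 and 4 passed the FDR limit in the 3 genotypes, all of them lower. Of all probe sets 4.06%, 3.07% and 5.82% were lower by this limit. Striated muscle markers (11 of 11) summed to 961 to 1149 over all pools. The part of muscle in the Cox7a1 signal was not tested. The 250 bases before the start of Cox7a1 (GRCm38.p6, chr7:30183921-30184170, plus strand) hold none of the 4 motifs either. They are shown because this gene had the largest mean difference from WT among the structural subunits in both single lines.
Cox7a1: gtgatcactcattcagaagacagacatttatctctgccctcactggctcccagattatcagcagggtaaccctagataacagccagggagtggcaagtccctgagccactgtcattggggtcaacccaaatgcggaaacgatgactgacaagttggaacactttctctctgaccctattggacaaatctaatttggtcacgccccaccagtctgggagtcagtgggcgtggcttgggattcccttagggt

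**Figure D4:**
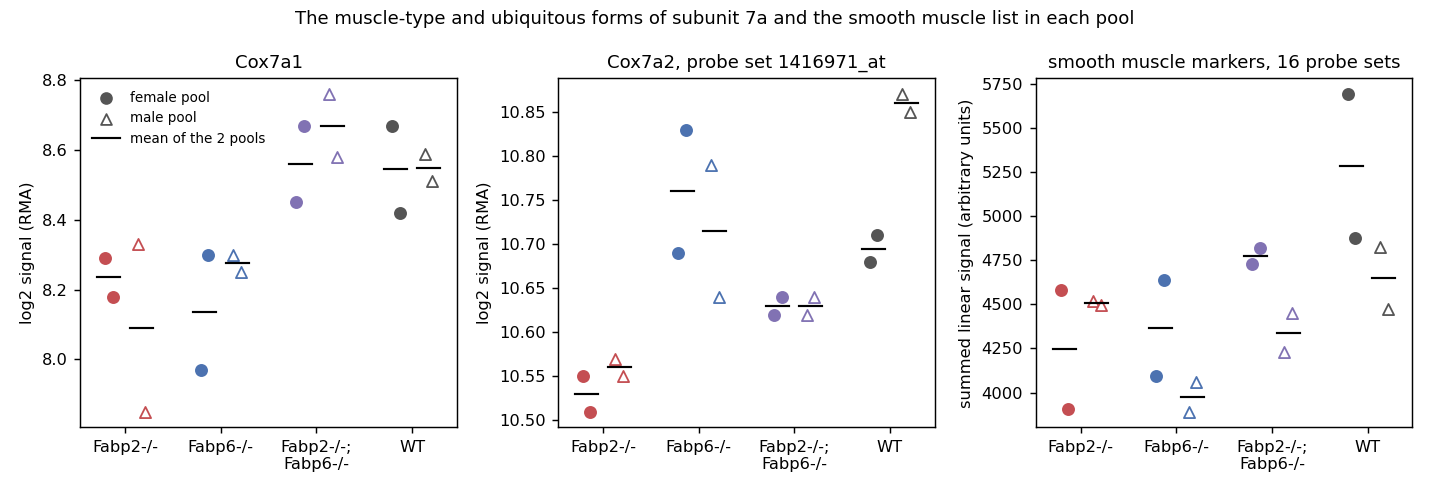
Log2 RMA signal of Cox7a1 and of Cox7a2 (probe set 1416971_at) and summed linear signal of 16 smooth muscle probe sets (y axes) in each of the 16 pools by genotype (x axis), with filled circles for female pools, open triangles for male pools and bars for the mean of 2 pools. Cox7a1 is lower in Fabp2-/- and Fabp6-/- pools (7.85 to 8.33) than in WT pools (8.42 to 8.67), and Cox7a2 is lowest in the Fabp2-/- pools (10.51 to 10.57).

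Cox7a2, the ubiquitous form of the same subunit, had 10.55 and 10.51 in Fabp2-/- females and 10.57 and 10.55 in Fabp2-/- males, against 10.68 and 10.71 in WT females and 10.87 and 10.85 in WT males on 1416971_at. This was -0.24 without overlap (SE 0.059, limma FDR = 0.0609). In Fabp2-/-;Fabp6-/- mice, at 10.62 to 10.64, the pools also lay below WT, with -0.15 (limma FDR = 0.226), which did not pass. The Fabp6-/- difference was -0.04 (limma FDR = 0.852). The second probe set, 1416970_a_at, differed by -0.11 in Fabp2-/- mice (limma FDR = 0.612). Cox7a2l, a related protein that joins complexes III and IV into supercomplexes, was higher in Fabp2-/-;Fabp6-/- mice on 2 of 3 probe sets. On 1432263_a_at it had 9.96 and 10.04 in Fabp2-/-;Fabp6-/- females and 9.99 and 9.99 in males, against 9.89 and 9.71 in WT females and 9.84 and 9.76 in WT males. The differences were 0.20 (SE 0.065, limma FDR = 0.137) and 0.19 (limma FDR = 0.179), without overlap on either probe set.

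Among the other paired forms, the testis form Cox6b2 had 5.75 and 5.84 in Fabp2-/- females and 5.43 and 5.64 in Fabp2-/- males, against 6.02 and 5.86 in WT females and 6.17 and 5.86 in WT males. This was a difference of -0.31 (SE 0.092, limma FDR = 0.145) at a signal close to background, and its ubiquitous partner Cox6b1 differed by -0.12 and -0.10 without passing. In Fabp2-/- males alone Cox6b2 differed by -0.48 (SE 0.13, limma FDR = 0.171), under the fold limit. Cox4i1, the regulatory subunit found in most tissues, stayed within 11.61 to 11.88 in all 16 pools, and Cox4i2, the form of lung and of low oxygen, within 6.25 to 6.65. Cox6a1 and Cox8a, ubiquitous forms, had no difference past the FDR limit against WT on any of their 5 probe sets, nor had the muscle form Cox8b (5.22 to 5.70 over the pools), the testis form Cox7b2 (3.28 to 3.53) or Cox8c. The muscle form Cox6a2 was 0.20 higher in Fabp2-/-;Fabp6-/- mice on 1457633_x_at (limma FDR = 0.14) and differed by -0.03 on its second probe set. Cox7c was 0.26 higher in Fabp6-/- mice on 1459885_s_at (limma FDR = 0.127), whose pools, at 5.85 to 6.07, lay above the WT pools, at 5.48 to 5.83. Its second probe set, 1459884_at, differed by 0.11 and did not pass, and both have signals close to background.

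In complex V the alpha and beta subunits, which carry the catalytic sites, did not pass the FDR limit. Atp5a1 (alpha) differed by -0.12 to -0.07 in Fabp2-/- mice and by -0.06 to 0.07 in Fabp6-/- mice over 3 probe sets, and Atp5b (beta) by -0.08 and -0.12. Atp5k, subunit e of the membrane part that helps ATP synthase form dimers, was lower on 1434053_x_at in Fabp2-/- mice, with 9.37 and 9.40 in females and 9.64 and 9.55 in males, against 9.72 and 9.65 in WT females and 9.79 and 9.76 in WT males. All 4 pools lay below WT, with -0.24 (SE 0.066, limma FDR = 0.111) and, in Fabp6-/- mice, -0.21 (limma FDR = 0.148). Its other 2 probe sets did not pass. Atp5pb, subunit b of the stator stalk, was 0.19 lower in Fabp6-/- mice on 1 of 2 probe sets (limma FDR = 0.157). The gamma subunit Atp5c1 was 0.24 higher on 1438809_at (limma FDR = 0.184), a probe set close to background with a WT male mean of 5.91. The second probe set of Atp5c1 differed by 0.03 in Fabp6-/- mice and did not pass. Atp5pb lies 119 protein-coding genes from Fabp2 in the RefSeq order, the nearest of the members to either targeted gene.

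In Fabp2-/-;Fabp6-/- mice no member was called by limma as the mean of both sexes, with 18 of 187 at an unadjusted p under 0.05, beside 16.3% of all probe sets, and 0.647% of all probe sets called. Differences between the double and single lines were not tested. Complexes III and IV had positive medians, 0.0229 and 0.0163. Ndufb11, an accessory subunit of complex I encoded on the X chromosome, was higher on 1455911_x_at, with 9.82 and 9.97 in Fabp2-/-;Fabp6-/- females and 9.83 and 9.95 in males, against 9.71 and 9.69 in WT females and 9.67 and 9.71 in WT males. Its differences were 0.20 (SE 0.068, limma FDR = 0.141) and, on 1416056_a_at, 0.18 (limma FDR = 0.182), without overlap of the pools. The third probe set of Ndufb11 differed by 0.06 and did not pass. Lower were Ndufc2 (-0.17 on 1460506_s_at, limma FDR = 0.172) and Ndufb4 on 1432427_at (-0.18, limma FDR = 0.154), the second at a WT mean of 5.46. Only 1 of 4 probe sets of Ndufc2 passed, and the highest of them differed by 0.07. In females Atp5c1 was 0.30 higher on 1416058_s_at (limma FDR = 0.187), with 11.80 and 11.94 in Fabp2-/-;Fabp6-/- pools against 11.62 and 11.52 in WT pools.

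Between females and males, most members had a small negative difference (female minus male) that did not pass the test. The median difference over the 4 genotypes was -0.0313, against 0.00309 over all probe sets, and 76.5% of members had a negative difference, against 47.8% of all probe sets. No member was called by limma. There were 14 at an unadjusted p under 0.05, beside 10.2% of all probe sets, and 0.111% of all probe sets were called. No member had all 8 female pools above or below all 8 male pools (0.0342% and 0.0428% of all probe sets). By genotype the medians were -0.033 in Fabp2-/-, -0.0289 in Fabp6-/-, -0.00969 in Fabp2-/-;Fabp6-/- and -0.0638 in WT mice. The WT value depends on 1 pool, since it was -0.104 on leaving out WT female replicate 1 and -0.0102 on leaving out replicate 2 of the same group. In Fabp2-/-, Fabp6-/- and Fabp2-/-;Fabp6-/- mice no member was called by limma either. There were 5, 4 and 10 at an unadjusted p under 0.05, beside 6.74%, 5.96% and 6.19% of all probe sets, and 0.057%, 0.265% and 0.0627% of all probe sets were called.

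Cytochrome c had the lowest median of the groups of members between WT females and males. All 4 probe sets of Cycs had negative differences, with a median of -0.237. On 1422483_a_at Cycs had 10.76 and 10.77 in WT females, against 11.12 and 11.02 in WT males, a difference of -0.30 (SE 0.092) that did not pass (limma FDR = 0.41). As the mean of the 4 genotypes the same probe set was 0.18 lower in females (SE 0.046, limma FDR = 0.101). Cox5a, a nuclear-encoded subunit of complex IV, was 0.18 lower on 1439267_x_at (SE 0.050, limma FDR = 0.131). Only 1 of 4 probe sets of Cycs and 1 of 3 of Cox5a passed the FDR limit in this mean. The smallest differences among the probe sets of the 2 genes were -0.033 and -0.015. Sco2 was 0.26 higher in females (SE 0.060, limma FDR = 0.058), with its genotype differences given above. By the FDR limit alone 1 member was higher and 2 were lower, 0.535% and 1.07% of members, against 0.807% and 1.14% of all probe sets. Leaving out each pool in turn gave 0 to 4 lower and 1 higher. No member was lower by this rule without Fabp2-/- male replicate 1, Fabp6-/- male replicate 1, Fabp2-/-;Fabp6-/- male replicate 2 or Fabp2-/-;Fabp6-/- female replicate 2, where 0.431% to 0.747% of all probe sets were.

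Other mitochondrial genes and glycolysis were read from further lists. No probe set of the citric acid cycle, the mitochondrial ribosome, mitochondrial import and carriers, the regulators of mitochondrial biogenesis, the assembly of the complexes, or glycolysis was called in the 3 mean comparisons with WT. The 39 probe sets of the citric acid cycle and pyruvate dehydrogenase (17 of 18 genes) had medians of -0.0711 (Fabp2-/-), -0.0333 (Fabp6-/-) and -0.0194 (both genes disrupted), and by the FDR limit 2, 2 and 5 were lower and 1, 0 and 2 higher. The mitochondrial ribosome (160 probe sets, 76 genes) had medians of -0.0376, -0.053 and 0.00783, and 6, 11 and 8 probe sets were lower and 1, 0 and 3 higher by the FDR limit. By the same limit 4.06%, 3.07% and 5.82% of all probe sets were lower and 1.81%, 2.89% and 4.53% higher. The regulators of biogenesis, such as Ppargc1a, Nrf1 and Tfam (52 probe sets, 24 genes), had medians of -0.0122, 0.0365 and -0.00104. Of 38 glycolytic probe sets (15 of 18 genes), 2 were called lower in WT females than in WT males, where 0.174% of all probe sets were called. The list's median there was -0.13. Only 1 probe set of the genes of mitochondrial DNA was annotated, with differences of 0.00, -0.11 and -0.02 that did not pass, so the mitochondrially encoded core of complexes I, III, IV and V is in effect not measured.

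The promoters of the members were read for motifs of factors known to act on respiratory genes. Of the 95 genes 78 were matched in the RefSeq promoter table (GRCm38.p6), and the 250 bases before the start were searched on both strands. The core of the motif of NRF1, nuclear respiratory factor 1 (GCATGCGC), was present in 9 of 78 member promoters (11.5%), against 3.53% of 14291 others. An ETS motif of the type bound by GABP (CCGGAAGT) was in 3 (3.85%, against 4.48%), the YY1 motif AAGATGGC in 0 (against 1.78%) and the ERR motif TCAAGGTCA in 1 (1.28%, against 0.322%). The NRF1 core can overlap its own copy on the opposite strand, and the motifs were counted independently of each other. The 9 genes with the NRF1 core were Atp5g2, Atp5k, Atp5l, Cox6a1, Cycs, Ndufa6, Ndufa8, Ndufaf4 and Sdhb. The promoter of Cox6a1 (chr5:115348959-115349208, minus strand) is shown because it holds this core on both strands, overlapping, marked in capitals. A match is a run of letters and not a measured site, and Cox6a1 did not differ past the FDR limit in any mean comparison with WT.
Cox6a1: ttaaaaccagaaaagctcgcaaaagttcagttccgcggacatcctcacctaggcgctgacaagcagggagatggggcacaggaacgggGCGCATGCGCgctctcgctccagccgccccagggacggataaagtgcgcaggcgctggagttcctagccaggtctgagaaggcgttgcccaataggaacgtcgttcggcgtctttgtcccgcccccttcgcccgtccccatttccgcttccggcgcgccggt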

How the data were processed

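The 16 pools were each hybridised to an Affymetrix 430A and a 430B array. The authors deposited log2 signals computed with robust multichip average (RMA, version not given in the sources used here), 1 value per probe set and array, which are normalized across the arrays of a chip, so a shift shared by most probe sets would not be seen. All tests were run on these values without further normalization. Genes were named from the platform annotation. Probe sets with several genes (691 on 430A, 245 on 430B) or none (1606 and 7656) were left out, which kept 20393 and 14674. Each chip was fitted with limma 3.58.1 (R 4.3.3) as 1 mean per group over all 16 arrays with 8 residual degrees of freedom, with the Benjamini-Hochberg adjustment made separately for each chip within each comparison. The limits, an FDR of 0.2 and an absolute log2 difference of 0.5, are those of the study's methods. A further 10 probe sets that name a member beside another gene were among those left out. No filter on low signals was applied, and 167 of 187 members reached 6 in at least 2 arrays. Differences in the text are gene-disrupted minus WT, or female minus male, in log2 units.

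The members, gene lists and tests were chosen with earlier results of these data known, so they are not independent evidence. Genes were named where they passed the FDR limit, where their pools did not overlap, or as core subunits and tissue forms. The fit was tested on simulated data. Pools of the same replicate number did not deviate together (correlations of -0.188 to 0.0902), so the numbers do not pair the pools. Alternatives were cyclic loess, the series matrix values, filters on low signal and on variation, 1 probe set per gene, leaving out probe sets that can cross-hybridise, only the arrays compared, adjustment over both chips, a trended robust prior, other limits, a replicate block and leaving out each pool. Intervals within a group rest on pools of 2 mice each. Signals are summed on the linear scale for the marker lists. Promoters came from the RefSeq table for GRCm38.p6.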

Additional observations from a re-analysis of the deposited data

How the results depend on the processing

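Of 326 recomputed counts of members called, 301 stayed within 1.5 times the reported count. Many of these agreements are of 0 with 0, since the reported count was 0 wherever Sco2 was not called. The series matrix values were identical to the signals used (0 values differed), so that alternative could not change a count. Without probe sets ending in _x_at, _s_at or _a_at, which include that of Sco2, the count was 0 in each of the 6 comparisons where Sco2 was called. With only the arrays of the groups compared, the interaction of sex and Fabp2-/-;Fabp6-/- gave 1 (Sco2). Without the fold limit, the counts were 2 for each sex of Fabp2-/- mice, 2 in males and 4 in females lacking both genes. They were 11, 22 and 10 in the means of Fabp2-/-, Fabp6-/- and Fabp2-/-;Fabp6-/- mice, and 3 between females and males over the 4 genotypes. For each sex of Fabp2-/- mice this was 1.07% of members, against 1.16% (males) and 3.2% (females) of all probe sets. In mice lacking both genes it was 1.07% (males) and 2.14% (females), against 4.41% and 2.8%. For the 3 means it was 5.88%, 11.8% and 5.35%, against 5.87%, 5.96% and 10.4%. Between females and males it was 1.6%, against 1.95%. Leaving out each pool gave 0 to 1 in Fabp2-/- males (Cox6b2 without WT male replicate 2 or Fabp2-/- male replicate 2, Cox7a1 without Fabp2-/- male replicate 1), 0 to 1 in the means of Fabp2-/- and of Fabp6-/- mice, 1 to 2 in Fabp6-/- females (Cox7a1 added without the pool labelled Fabp6-/- female replicate 2), 0 to 1 between Fabp6-/- females and males (Cox6b2 without Fabp6-/- male replicate 2) and 0 to 1 in the interaction of sex and Fabp2-/-;Fabp6-/- (Sco2 without Fabp2-/-;Fabp6-/- male replicate 2). Beyond these constructions the cause was not tested. With the replicate number as a block, the count was unchanged in all 17 comparisons, at 1 in Fabp2-/- females for example. A crossed pairing, chosen after seeing the data as were the counts without the fold limit for each pool left out, gave 0 in Fabp2-/- males and 1 in Fabp6-/- females.

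The FDR of Sco2 over the alternatives was 0.000453 to 0.0591 in Fabp2-/- females, 0.000738 to 0.0992 in Fabp6-/- females, 0.000732 to 0.189 in Fabp2-/-;Fabp6-/- females and 0.000468 to 0.144 between WT females and males. The median of all members ran over -0.0868 to -0.0377 in Fabp2-/-, -0.0904 to -0.0486 in Fabp6-/- and -0.0261 to 0.0238 in Fabp2-/-;Fabp6-/- mice when each pool was left out, so its sign in the last is not settled. The sign of the median also changed for Fabp2-/-;Fabp6-/- females (-0.0232 to 0.0584), between Fabp2-/-;Fabp6-/- females and males (-0.0468 to 0.0185) and in the interaction of sex and Fabp6-/- (-0.0104 to 0.076). Members below 6 on the log2 scale are close to background, which limits what can be seen there.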
